A study of Mus musculus with 9 samples.

Results

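Mouse spermatocytes kept with 24 mM oxamate for 48 h were compared with untreated spermatocytes across all genes that could be tested. Oxamate is a pyruvate analog that blocks lactate dehydrogenase. The comparison used 6 of the 9 libraries of the study, all 3 untreated and all 3 oxamate libraries, and 18234 of the 49216 genes with a count. The cells of both groups were germ cells at the pachytene and diplotene stages from C57Bl mice that carry tdTomato, a red fluorescent protein, under a promoter active in germ cells, by which they were sorted from digested testis. The labels give no name for that promoter, no age of the mice and no time in culture for the untreated cells, so treatment and time in culture cannot be told apart. They also do not say whether libraries A, B and C of a group came from separate mice or cultures, and a p-value here sets a difference against the variation among libraries, part or all of which may be technical. The other 3 libraries, from cells that received oxamate with 0.3 mM octyl-L-2-hydroxyglutarate, entered the filter on low counts, the scaling and the shared estimate of that spread, and no comparison given here.

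Pachytene and diplotene are the long middle stages of meiotic prophase, when homologous chromosomes are held together by the synaptonemal complex, recombine and then begin to come apart. Spermatocytes in the testis take up lactate delivered by Sertoli cells and turn it into pyruvate for their mitochondria, a step catalysed by lactate dehydrogenase, of which the germ line has an isozyme of its own. At the same stages many genes of the later sperm are already transcribed, while the X and Y chromosomes are silenced in the sex body.

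The cells carried the transcripts of their labelled stage in both groups. All 24 markers of pachytene and diplotene spermatocytes in the list used were detected and tested, and their summed level ranged from 22320 to 24400 CPM in untreated and from 20290 to 22980 CPM in oxamate libraries. CPM, the usual count scaled to library size, was computed with TMM-adjusted library sizes. Markers of somatic testis cells were low: the Sertoli list summed to 20.7 to 22.6 CPM in untreated and 21.4 to 28.3 in oxamate libraries, the Leydig list to 3.66 to 4.11 and 2.24 to 2.90, and the macrophage list to 4.57 to 4.78 and 3.42 to 6.19. Fshr and Gata4 of the Sertoli list, Tyrobp of the macrophage list and all 4 globin genes were at 0. Germ cell lists of other stages were higher, at 878 to 1150 CPM for spermatogonia, 3413 to 3804 for round spermatids and 2829 to 4135 for elongating spermatids over both groups. The 6 libraries held 27722221 to 42121633 counts. On the first principal component, which held 42.1% of the variance, the untreated libraries lay between -29.8 and -27.2, oxamate libraries B and C both at 35.8 and oxamate library A at 13.1, so library A stood apart from the rest of its group, on the same side of the untreated libraries. Mitochondrially encoded transcripts made up 0.448 to 0.473% of counts in untreated libraries and 0.501, 0.618 and 0.752% in oxamate libraries A, B and C, and the part of this in the results was not tested.

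Of the 18234 genes tested, 1747 (9.58%) changed with oxamate at an adjusted p under 0.05, with 1047 (5.74%) higher and 700 (3.84%) lower. Most changes were small. Their log2 changes had a median size of 0.61 and quartiles of 0.46 and 0.86, while the median over all genes tested was -0.01. At least 2-fold changes were seen in 175 higher and 112 lower genes, and at least 4-fold changes in 9 of each. The 3 libraries of each group did not overlap for 6184 genes (33.9%), 3148 higher and 3036 lower with oxamate, and 1746 of the 1747 changed genes were among them. Between 3.25% of genes under 1 CPM and 14.4% of genes from 30 to 100 CPM passed the test. Libraries that share a letter deviated together, and adding the letter as a replicate block gave 4032 genes (22.1%), 2210 higher (12.1%) and 1822 lower (9.99%), all 1747 among them. Without oxamate library A 2088 genes changed, against 704 and 606 without oxamate library B or C and 570, 541 and 338 when untreated A, B or C was left out. Of the changed genes 56 of the higher had fewer than 3 untreated libraries, and 42 of the lower fewer than 3 oxamate libraries, at the level the filter asks for, so such genes were tested through other libraries. In bulk libraries a lower transcript can mean less RNA per cell or fewer cells that hold it, and these cannot be told apart.

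**Figure D1:**
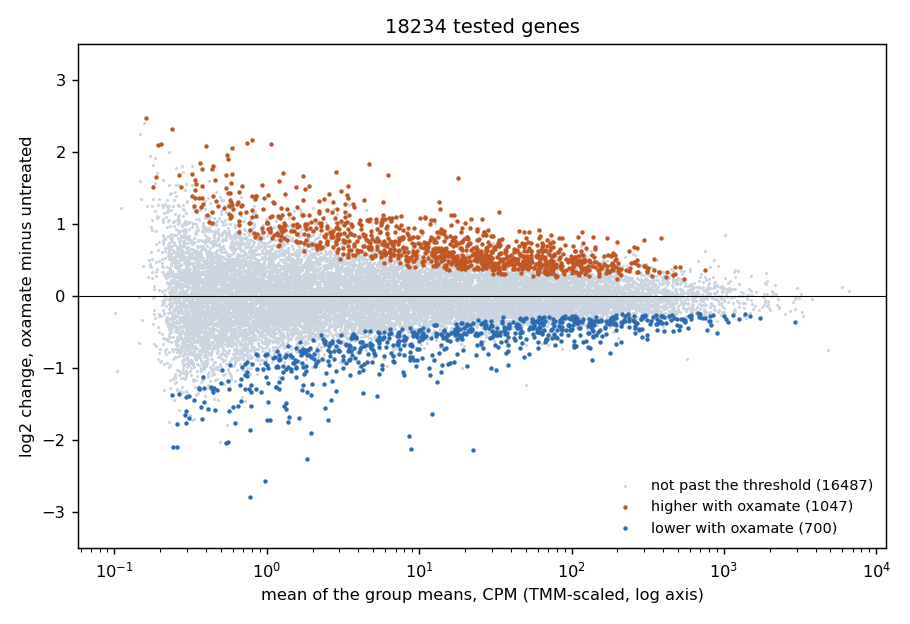
Log2 change with oxamate (vertical axis) against the mean of the group means in CPM (horizontal log axis) for 18234 tested genes, grey where the adjusted p was 0.05 or more, orange for the 1047 higher and blue for the 700 lower genes. The changed genes lie at all levels, with smaller changes passing at higher levels.

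The promoters of the leading rises Rab11fip3 and Pgm2l1 and of the leading fall Ptpn3 are shown, with 30, 39 and 18 CpG in that order. As groups, promoters of genes that rose and fell differed in CpG content, as described near the end. Every printed window passes the CpG cut used there, so by that cut these windows do not differ. A second RefSeq window of Rab11fip3 (chr17:26021811-26022110, minus strand), not printed, has 5 CpG, below that cut, and no GC box. Each window is 300 bases around the start annotated by RefSeq, on GRCm38.p6, mostly upstream of that start. Against the gene positions given below, which are from the authors' table, the Pgm2l1 window lies mostly inside the gene. Capitals mark matches on either strand to the motifs searched. Rab11fip3 (chr17:26069469-26069768, minus strand) holds a CCAAT box, a TATA box, a cyclic AMP response element (TGACGTCA) and a GC box (GGGCGG), each once. Pgm2l1 (chr7:100227357-100227656, plus strand) holds 6 GC boxes, some of them overlapping, and 1 E-box (CACGTG). Ptpn3 (chr4:57301788-57302087, minus strand) holds 1 CCAAT box and no GC box.
Rab11fip3: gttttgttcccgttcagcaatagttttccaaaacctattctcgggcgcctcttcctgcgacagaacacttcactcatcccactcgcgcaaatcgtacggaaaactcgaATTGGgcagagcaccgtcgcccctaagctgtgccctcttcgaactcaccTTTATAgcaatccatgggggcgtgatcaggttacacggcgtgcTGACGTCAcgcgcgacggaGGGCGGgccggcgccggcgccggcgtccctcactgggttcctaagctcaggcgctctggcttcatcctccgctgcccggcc
Pgm2l1: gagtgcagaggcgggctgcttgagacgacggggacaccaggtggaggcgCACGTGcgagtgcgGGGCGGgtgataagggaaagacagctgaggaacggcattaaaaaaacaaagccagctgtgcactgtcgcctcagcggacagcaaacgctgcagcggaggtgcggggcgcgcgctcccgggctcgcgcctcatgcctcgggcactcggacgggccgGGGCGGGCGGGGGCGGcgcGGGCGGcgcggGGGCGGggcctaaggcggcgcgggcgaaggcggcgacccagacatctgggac
Ptpn3: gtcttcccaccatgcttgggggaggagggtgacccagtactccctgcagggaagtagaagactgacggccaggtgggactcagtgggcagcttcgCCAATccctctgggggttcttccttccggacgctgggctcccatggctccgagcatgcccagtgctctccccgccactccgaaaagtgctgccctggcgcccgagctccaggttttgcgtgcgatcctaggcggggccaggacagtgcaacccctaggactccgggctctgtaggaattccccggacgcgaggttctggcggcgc

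Rab11fip3, Slc38a2 and Pgm2l1 had the largest rises among changed genes at 10 CPM or more that have a gene name. Gene models without a name, such as Gm numbers and Rik clones, were left out of this and the other rankings of single genes. Rab11fip3, an effector of the recycling endosome GTPase Rab11 (ENSMUSG00000037098, chromosome 17, 25989036 to 26069555), stood at 9.19, 8.70 and 7.98 CPM in untreated libraries A, B and C and at 28.4, 29.0 and 24.1 CPM in oxamate libraries A, B and C. The groups were far apart, with a 3.13-fold rise (log2 change 1.65, SE 0.12, limma adjusted p = 0.00023). Pgm2l1, which makes glucose 1,6-bisphosphate, the cofactor of phosphoglucomutases (chromosome 7, 100227394 to 100278868), went from 21.2, 19.8 and 20.6 CPM to 43.4, 46.8 and 48.4 CPM. The spread within either group was small beside this 2.25-fold rise (SD 0.691 and 2.56 CPM, adjusted p = 0.00023).

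Slc38a2, a sodium-coupled importer of small neutral amino acids, went from 10.4, 6.89 and 7.62 CPM to 23.5, 15.7 and 18.5 CPM. In both groups library A was the highest and library B the lowest, the adjusted p was 0.020, and with the letter as a block it was 0.00036. Fbxo45, the substrate-binding part of a ubiquitin ligase, rose 2.19-fold from 10.2 ± 0.697 to 22.4 ± 0.577 CPM (mean ± SD, n = 3 libraries a group, here and below). Fat1, a giant protocadherin, rose by 1.07 on the log2 scale, from 16.6 ± 1.95 to 34.8 ± 1.21 CPM. Preb, which starts the coat of vesicles that leave the endoplasmic reticulum, rose 2.02-fold from 13.3 ± 1.81 to 26.8 ± 2.33 CPM. Wasl, an activator of actin branching, went from 6.43 ± 0.378 to 13.8 ± 1.74 CPM, and the junction protein gene Pkp4 from 14.2 ± 1.96 to 29.8 ± 2.83 CPM. Upf3b, an X-linked factor of nonsense-mediated decay, rose to 9.92 CPM in oxamate library A and to 16.5 and 18.2 CPM in B and C, from 6.01, 6.999 and 7.41 CPM. Fam102a, Nutm2 and the inositol trisphosphate kinase gene Itpkc were the other rises of this rank, at log2 changes of 1.13, 1.05 and 0.99.

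Ptpn3, a tyrosine phosphatase with a domain that binds membrane cytoskeleton (chromosome 4, 57190841 to 57301837), had the largest fall of genes with a name at 10 CPM or more. Its level was 35.9, 36.9 and 37.6 CPM in the untreated libraries and 8.92, 10.03 and 6.69 CPM with oxamate, a fall of 4.39-fold (adjusted p = 5.1e-05). Tpd52, whose product takes part in vesicle traffic, fell 4.34-fold from 12.4, 15.1 and 15.9 CPM to 3.48, 3.40 and 2.96 CPM. Both genes stood far outside the spread of either group. Rdm1, which encodes a protein with an RNA recognition motif like that of the repair protein RAD52, fell from 13.6 ± 1.42 to 3.58 ± 1.07 CPM. Vmn2r1, named as a vomeronasal receptor, fell 3.11-fold from 18.5 ± 2.60 to 5.91 ± 0.907 CPM.

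Signalling and exocytosis genes followed. Rapgef4, a cyclic AMP-activated exchange factor for Rap GTPases, fell 2.28-fold from 18.3 ± 1.62 to 8.11 ± 1.70 CPM. The transcription factor gene Tfcp2 fell from 43.0 ± 6.72 to 20.8 ± 1.42 CPM, and Kcnip4, a calcium-binding partner of potassium channels, from 27.2 ± 3.37 to 13.8 ± 1.05 CPM. Rab3c, a GTPase of regulated exocytosis, stood at 17.6, 23.4 and 14.5 CPM in untreated and 8.22, 12.7 and 7.76 CPM in oxamate libraries, so that library B was the highest of both groups. Gldc, the decarboxylase of the mitochondrial glycine cleavage system, was tight within groups, at 21.4, 22.9 and 21.8 CPM against 11.4, 12.3 and 11.4 CPM, a fall of 1.88-fold (adjusted p = 0.00097). Commd9, the long noncoding Cdk19os and Ankrd63 completed this rank, with log2 changes of -0.96, -0.96 and -0.89. Of the 24 genes of both ranks, Slc38a2, Upf3b, Nutm2 and Rab3c lost their call without at least 1 of the 6 libraries, and the other 20 kept it without any single library.

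**Figure D2:**
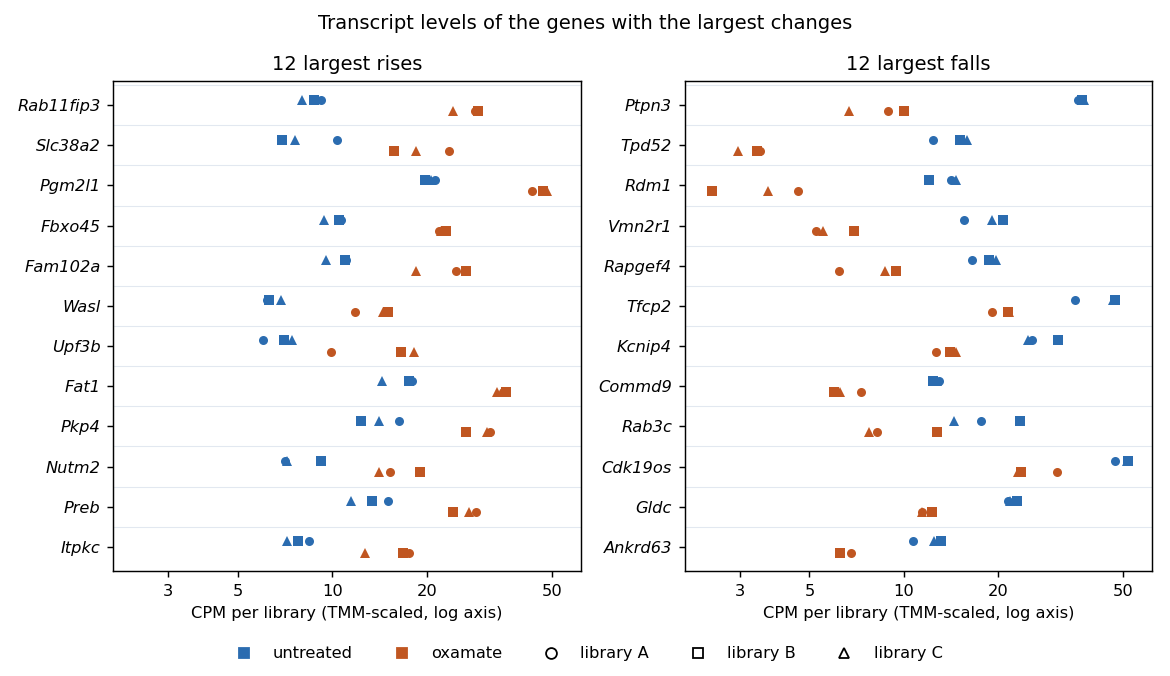
CPM in each library (horizontal log axis) of the 12 genes with the largest rises and the 12 with the largest falls among changed genes of at least 10 CPM, blue for untreated and orange for oxamate, with the marker shape for library A, B or C. Gene models without a name were left out. Lack of overlap between the groups was a condition of the choice, met by 33.9% of all tested genes. The distance between groups ranges from Rab11fip3 at 7.98 to 9.19 against 24.1 to 29.0 CPM to Rab3c at 14.5 to 23.4 against 7.76 to 12.7 CPM.

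Changed genes with a gene name were also ranked by the difference in CPM, with 8 given each way. Sltm, a nuclear RNA-binding modulator of transcription, went from 255, 295 and 279 CPM to 363, 512 and 601 CPM. Rbbp6, a ubiquitin ligase that also takes part in cutting of mRNA ends, went from 198, 224 and 230 CPM to 296, 392 and 448 CPM. In both genes oxamate library A lay closest to the untreated libraries and C farthest from them. Fam184a, the NURF remodeler subunit gene Bptf, the transcriptional corepressor gene Spen, the deubiquitinase gene Usp32, the replication timing factor gene Rif1 and Arhgap29 followed, with log2 changes from 0.36 to 0.68.

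Gk2, a glycerol kinase expressed in testis, had the largest drop in log2 terms in this rank, from 1064, 1048 and 1077 CPM to 788, 735 and 708 CPM (log2 change -0.52, adjusted p = 0.0040). Fhl4, a LIM-domain gene of the testis, fell from 3302 ± 71.6 to 2569 ± 239 CPM. Pebp1, an inhibitor of RAF kinase, fell from 966, 847 and 861 CPM to 792, 606 and 546 CPM, with library A the highest of both groups. Ropn1l, of the sperm fibrous sheath, fell from 1195 ± 26.1 to 932 ± 40.3 CPM, and Phkg2, the catalytic phosphorylase kinase subunit of liver and testis, from 1390 ± 22.6 to 1117 ± 113 CPM. Adam3, for a sperm surface protein, and Sord, which oxidizes sorbitol to fructose, had log2 changes of -0.31 and -0.24. Only Gk2 among these 8 falls, and Usp32 and Bptf among the 8 rises, kept the call without any single library.

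Among lactate dehydrogenase genes Ldha, Ldhal6b and the D-lactate enzyme gene Ldhd were lower, while Ldhc missed the threshold. Of 21 tested genes of lactate dehydrogenase, lactate transport and pyruvate entry, 4 fell and none rose, where 3.84% of all genes fell, and the median log2 change was -0.09 (1 higher and 7 lower with the replicate block; 6 lower without oxamate library A and 2 without B or C). Ldha stood at 1254, 1249 and 1248 CPM in untreated and 1114, 1025 and 977 CPM in oxamate libraries (log2 change -0.27, adjusted p = 0.045). The untreated libraries were nearly equal and every oxamate library lay below them, with library A the closest. Ldhal6b, an intronless lactate dehydrogenase-like gene, fell from 1083, 1102 and 1111 CPM to 935, 913 and 883 CPM. Ldhc, the germ-line isozyme, lay at 3728, 3594 and 3599 CPM against 3294, 2861 and 2883 CPM, without overlap, and missed the threshold (log2 change -0.28, adjusted p = 0.053; 0.0098 with the replicate block). Pdha2, the testis copy of the catalytic E1 subunit of pyruvate dehydrogenase, fell 1.34-fold from 274, 264 and 285 CPM to 213, 196 and 203 CPM. Ldhd, a mitochondrial D-lactate dehydrogenase, had the largest fold change of the list and the lowest level, from 3.75, 4.59 and 3.30 CPM to 1.40, 1.10 and 0.959 CPM (log2 change -1.73, adjusted p = 0.0014).

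The monocarboxylate transporters did not pass the test. Slc16a1 lay at 7.42 ± 2.72 and 5.99 ± 2.19 CPM, and Slc16a7 at 281 ± 19.2 and 248 ± 25.02 CPM. In glycolysis 2 of 27 tested genes fell and none rose, with 22 of 27 log2 changes negative and a median of -0.19; without oxamate library A 4 fell, without B 1 and without C none, and with the replicate block 5 fell and 1 rose. Pgam2, a phosphoglycerate mutase, fell from 655, 673 and 690 CPM to 553, 548 and 520 CPM, and the enolase Eno1 from 161, 143 and 160 CPM to 136, 103 and 106 CPM. None of 15 pentose phosphate and NADPH genes passed, with 3 named by the smallest p, Rpe, Me3 and Taldo1, at log2 changes of 0.45, -0.36 and -0.79. With the replicate block 1 rose and 4 fell, and Rpe, Me3 and Taldo1 passed (adjusted p = 0.024, 0.021 and 0.049). In fatty acid oxidation 2 of 21 fell, Hadhb, the thiolase subunit of the trifunctional protein, by 0.47 on the log2 scale and Cpt1c by 0.37. The 2 falls in each list, 7.41% in glycolysis and 9.52% in fatty acid oxidation, stand beside 3.84% of all genes.

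A few enzymes outside fuel oxidation moved. In serine, glycine and one-carbon metabolism 1 of 18 tested genes rose and 1 fell (5.56% each), near the 5.74% and 3.84% over all genes. Aldh1l2, which oxidizes formyltetrahydrofolate in mitochondria and was tested only through libraries where it is high, stood at 0.343, 0.185 and 0.1499 CPM against 1.02, 0.815 and 1.04 CPM, on 5 to 15 counts in the untreated libraries, while Gldc fell as given above. Psat1, a serine synthesis enzyme, went from 19.96, 12.3 and 11.2 CPM to 37.8, 21.3 and 26.2 CPM, again with library A highest in both groups, and passed only with the replicate block (adjusted p = 0.073 and 0.0010). Of 24 genes of cholesterol synthesis and its regulation 3 rose and none fell: Hmgcs1, an early enzyme of the pathway, from 26.1, 24.2 and 26.6 CPM to 38.7, 39.7 and 46.4 CPM, the sterol sensor partner Insig1 by 1.12 on the log2 scale, and Nsdhl by 0.88. The 3 rises were 12.5% of the cholesterol list, beside 5.74% of all genes. The median of that list was 0.01, and 12 of 24 log2 changes were positive. With the replicate block 6 rose and 2 fell.

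Chromatin remodelers were among the lists with the largest shares of rises. Of 31 tested genes of SWI/SNF and other remodeling complexes 7 (22.6%) rose and 1 fell, where 5.74% and 3.84% of all genes did, and 23 of 31 log2 changes were positive, at a median of 0.21. Arid1a, a subunit of the canonical BAF complex, went from 103, 103 and 93.6 CPM to 162, 171 and 196 CPM (log2 change 0.82, limma adjusted p = 0.0018). Its paralog Arid1b fell from 4.14, 4.59 and 4.14 CPM to 2.35, 3.01 and 2.27 CPM. The paralogs thus moved in opposite directions at levels far apart. Baz1b rose from 15.3 ± 0.970 to 26.4 ± 2.64 CPM, Bptf from 206 ± 11.1 to 330 ± 49.0 CPM, and the helicases Chd2, Chd8 and Chd9 and the PBAF subunit Pbrm1 by 0.31 to 0.50 on the log2 scale. With the replicate block 12 rose and 3 fell. When trends with transcript length and GC content were also removed 7 rose and 3 fell, with a median of 0.09. Without oxamate library A 13 rose, and without B or C 3 rose.

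Histone acetylation genes moved in both directions, 4 of 27 (14.8%) higher and 2 (7.41%) lower, beside 5.74% and 3.84% of all genes. Without oxamate library B or C 2 were higher and 1 or none lower. The deacetylase gene Hdac2 rose from 15.9, 14.9 and 16.0 CPM to 23.1, 22.9 and 30.4 CPM. The acetyltransferase genes Crebbp and Ep300 rose by 0.44 and 0.42. Kat7, an acetyltransferase linked to replication origins, fell from 597, 663 and 620 CPM to 482, 508 and 472 CPM, and Sirt1, an NAD-dependent deacetylase, by 0.32. Acetyltransferase and deacetylase genes were thus found on both sides. Of 32 genes of polycomb and other repressive chromatin 2 (6.25%) rose, near the share over all genes, and none fell. Phc3 rose by 0.72 and Bmi1 by 0.50, and with the replicate block 9 were higher and 1 lower.

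Splicing regulators included several rises. Of 39 splicing regulators 6 (15.4%) rose and 1 fell, beside 5.74% and 3.84% of all genes, with a median of 0.14. Of 30 core spliceosome genes 1 rose and 1 fell with a median of 0.06. The difference between these lists was not tested. Nova1 and Nova2, RNA-binding proteins first known from neurons, went from 1.40, 0.592 and 0.540 CPM to 3.13, 2.02 and 2.71 CPM and from 4.05, 4.07 and 5.04 CPM to 8.27, 7.27 and 6.71 CPM. Untreated library A held more Nova1 than B and C, and the groups still did not overlap. Srsf11 lay at 128, 129 and 128 CPM and rose to 159, 192 and 172 CPM, and Hnrnpa1 rose from 26.1 ± 0.724 to 38.4 ± 3.91 CPM. Srsf6 and Hnrnph2 rose by 0.40 and 0.73, and Ptbp1, a repressor of many exons, fell from 206 ± 9.02 to 168 ± 7.35 CPM. In the core list Snrnp70, of the U1 particle, rose by 0.49, and the Sm protein gene Snrpd2 fell by 0.46. With length and GC trends removed as well as the block 8 regulators rose and 6 fell, against 13 and 4 with the block alone, and 11 rose without oxamate library A but 2 without B or C.

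Growth factor and nutrient signalling genes included several rises. In the TGF-beta and BMP pathway 5 of 21 (23.8%) rose and 1 fell, beside 5.74% and 3.84% of all genes, with a median of 0.25. On the receptor side Acvr2a, an activin receptor, went from 31.4, 33.4 and 32.0 CPM to 47.2, 50.3 and 45.7 CPM, Bmpr1a rose by 0.80, and Bmpr2 fell by 0.54. Of the signal carriers Smad5 rose from 11.4, 8.70 and 8.61 CPM to 18.3, 16.8 and 19.8 CPM, and Smad4, the partner shared by all such signals, by 0.61. Skil, a repressor bound to these proteins, rose from 9.32 ± 1.75 to 17.3 ± 0.962 CPM. The count was 7 higher and 1 lower both with the block and with length and GC trends removed as well, and 3 rose without oxamate library C.

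Of 34 genes of mTORC1 and AMPK signalling 3 (8.82%) rose and 1 (2.94%) fell, beside 5.74% and 3.84% of all genes. Rragc, a GTPase that brings mTORC1 to lysosomes, went from 48.7, 45.9 and 48.6 CPM to 67.3, 74.1 and 71.4 CPM, Rictor, a subunit of mTORC2, rose by 0.67 on the log2 scale, and the sestrin Sesn1 by 0.77. Mlst8, a subunit of both complexes, fell from 12.1, 10.4 and 10.9 CPM to 7.33, 7.09 and 6.28 CPM. With the replicate block 10 rose and 3 fell, and without oxamate library A 7 and 2. Of 14 FOXO factors and targets 3 passed as higher and 1 as lower: Ccng2, a cyclin G, from 1.49, 1.11 and 1.26 CPM to 4.99, 4.96 and 3.29 CPM, Cat, for catalase, by 1.02, and Foxo4, with 4 to 6 counts a library against 15 to 22, which was tested only through libraries where it is high, while Txnip, which binds thioredoxin and lowers glucose uptake, fell from 66.0, 77.8 and 75.2 CPM to 45.9, 47.7 and 46.7 CPM. The 3 rises were 21.4% of this list and its median was 0.37, Foxo4 included in both. In the MAPK list 3 of 28 (10.7%) rose, among them Map3k1 by 1.01 and Braf by 0.40, and Egfr fell by 0.89. In the interferon list Stat2 went from 4.99, 5.15 and 4.11 CPM to 9.33, 9.15 and 9.43 CPM and Irf3 from 49.5 ± 1.41 to 37.9 ± 1.10 CPM. Of the 11 genes tested in that list 9 had negative log2 changes, at a median of -0.24. With the replicate block 1 of them rose and 3 fell.

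**Figure D3:**
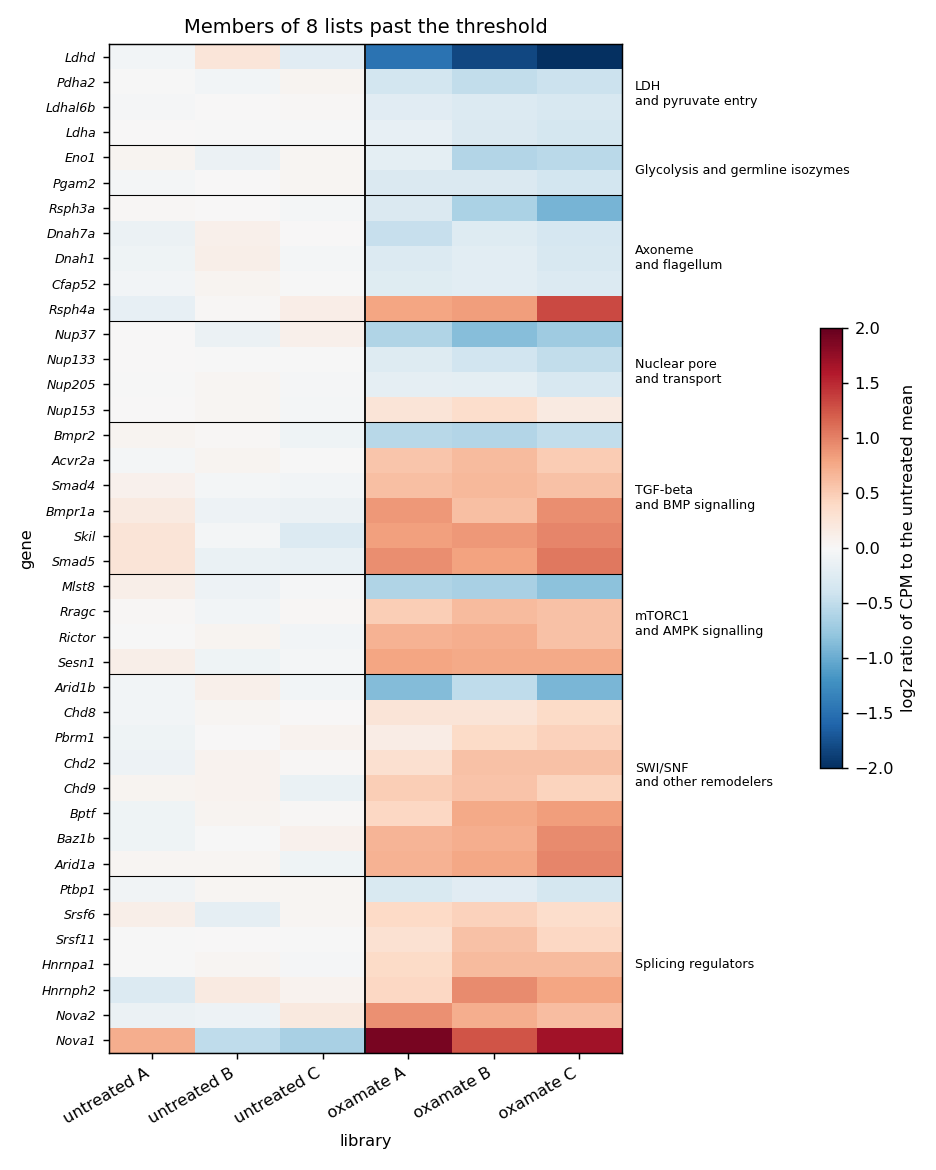
Log2 ratio of CPM to the untreated mean in each library (columns) for the members of 8 gene lists that passed the test (rows), from blue for lower to red for higher. The untreated columns stay near 0 except for Nova1, and the oxamate columns show falls of Ldhd, Ldha, Pdha2 and most changed axoneme and nuclear pore genes beside rises of most changed remodeler, splicing and TGF-beta genes, often weaker in oxamate library A.

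Few genes of meiosis and of the sperm to come passed the test. Over all genes 5.74% rose and 3.84% fell, against 12% and 0% in the synaptonemal complex and cohesin list. The shares were 5.56% and 2.78% in DNA repair and recombination, and 5.88% and 2.94% of 34 genes in mitosis and meiotic exit. Of 25 genes of the synaptonemal complex and cohesin 3 rose and none fell: Pds5a, a cohesin regulator, from 42.4, 42.4 and 41.2 CPM to 60.9, 56.0 and 60.5 CPM, Hormad2, an axis protein of unsynapsed chromosomes, by 0.49, and 4930447C04Rik by 0.72, and with the replicate block 6 rose and 1 fell. Sycp3, a lateral element protein, lay at 168 ± 12.6 and 178 ± 29.8 CPM. In DNA repair and recombination 2 of 36 rose, Rad51c by 0.43 and Brca1 by 0.50, and the checkpoint kinase Atr fell from 731, 751 and 795 CPM to 598, 613 and 650 CPM, with 6 higher and 2 lower under the block. In mitosis and meiotic exit the phosphatase Cdc25a rose by 0.47 and Ccna2 by 0.82, and Cdc20, an activator of the anaphase-promoting complex, fell from 162, 146 and 153 CPM to 131, 103 and 92.5 CPM, with 5 each way under the block.

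Of 40 axoneme and flagellum genes 4 (10%) fell and 1 rose, beside 3.84% and 5.74% of all genes, with a median of -0.11. The dynein heavy chains Dnah7a and Dnah1 fell by 0.34 and 0.27 and Cfap52 by 0.24, and the radial spoke gene Rsph3a fell from 127, 125 and 122 CPM to 102, 79.9 and 65.5 CPM, with the oxamate libraries well apart from each other. Rsph4a, another radial spoke gene, rose from under 0.5 CPM. With the replicate block 10 fell and 3 rose, and without oxamate library B 1 fell and without C none. Among 29 acrosome genes Dkkl1 and Actl9 fell by 0.27 and 0.47, and Gopc, a Golgi protein needed for acrosome formation, rose from 66.9, 69.4 and 68.3 CPM to 91.9, 112 and 133 CPM. Of 31 nuclear pore and transport genes 3 fell and 1 rose: the scaffold subunits Nup37, Nup133 and Nup205, with Nup37 at 32.9, 30.3 and 35.1 CPM against 21.6, 18.2 and 19.98 CPM, while Nup153, on the nuclear side of the pore, rose from 378 ± 10.1 to 453 ± 25.8 CPM. With the block 6 fell and 6 rose, and without oxamate library A, B or C 5, 2 or 1 fell.

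Stage markers that passed the test were mostly of the pachytene and diplotene list. Of its 24 markers 4 (16.7%) fell and none rose, beside 3.84% and 5.74% of all genes. Pou5f2 fell by 0.48 on the log2 scale, Adam3 and Tbpl1 both by 0.31, and Adam2 by 0.28. With the replicate block 7 were lower and 2 higher, and without oxamate library B or C 1 was lower. Of 23 round spermatid markers 1 fell, Actl9. None of 21 elongating spermatid markers passed, yet 18 of 21 had negative log2 changes, with a median of -0.32. Their summed level was 3328, 3379 and 3553 CPM in untreated and 2829, 3345 and 4135 CPM in oxamate libraries, so the groups overlapped. Prm1, the sperm protamine in that list, lay at 60.5, 52.1 and 71.9 CPM against 33.6, 31.2 and 51.5 CPM (log2 change -0.68, adjusted p = 0.17). None of 10 tested spermatogonial and none of 5 tested Sertoli markers passed. Star, of steroid synthesis and the only tested Leydig marker, fell from 3.18, 3.15 and 3.63 CPM to 1.40, 2.13 and 2.19 CPM. Ptprc, of leukocytes, fell by 0.95, while 2 of the 4 tested macrophage and leukocyte markers had positive log2 changes. In the stromal list, with 10 tested, Col3a1 rose by 1.01 and Vwf fell by 0.69. Ptprc and Col3a1 lay below 2 CPM. The part of other cells in the results was not tested.

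In the remaining lists few members passed. In lysosome and vacuolar ATPase genes 2 of 25 rose and 2 fell. Atp6ap2, with means of 0.398 CPM in untreated and 1.74 CPM in oxamate libraries, had a log2 change of 2.11. Of the proton pump subunit genes Atp6v0a1 rose by 0.40, while Atp6v0d1 and Atp6v1e1 had log2 changes of -0.46 and -0.44. Of the clock list Clock, an activator of the oscillator, rose by 0.61 and Cry2, a repressor, by 0.49 out of 18 tested. In the hypoxia list Vegfa rose by 0.93, the demethylase gene Kdm3a by 0.30, and Ero1l fell by 0.54 out of 17. Among ciliary genes Ofd1 rose by 1.27, Rpgrip1l by 0.45 and Bbs4 fell by 0.38 out of 32. Autophagy had 1 rise of 33, Wipi1, translation factors 1 rise and 1 fall of 36, Eif5b and Eef2k, proteasome 1 rise of 33, Psmd3, aminoacyl-tRNA synthetases 1 rise of 20, Lars, and KRAB zinc finger control 1 rise of 21, Zfp455. These counts of at most 2 each way say little beside the 5.74% and 3.84% over all genes. With the replicate block the ciliary list had 7 higher and 3 lower, the clock list and the synthetases each 5 and 1, translation factors 4 and 6, the proteasome 3 and 4, autophagy 3 and 2, and the KRAB list 3 and 1.

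**Figure D4:**
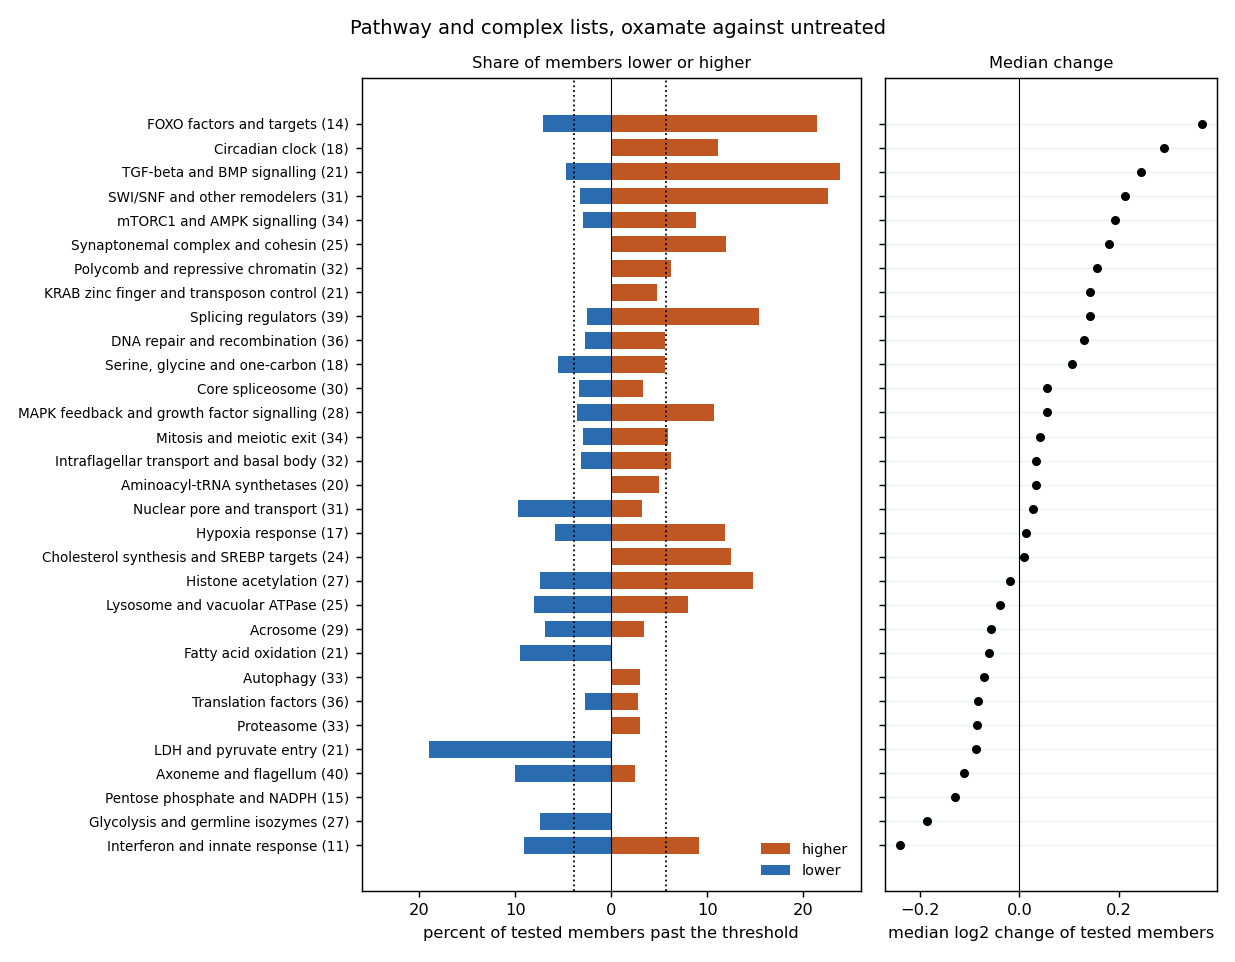
Percent of tested members higher (orange, to the right) or lower (blue, to the left) and median log2 change for 31 pathway lists, with the number of members tested in brackets and dotted lines at the shares over all genes, 5.74% higher and 3.84% lower. TGF-beta, remodeler and FOXO lists have the largest shares of higher members, 23.8, 22.6 and 21.4%, the last with Foxo4 counted, and the lactate dehydrogenase and pyruvate list the largest share of lower members, 19%.

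Gene Ontology terms were ranked by the share of members that changed, so the leading terms are by construction those with high shares among the 1928 terms with 15 to 300 tested genes. RNA processing led the rises, where 5.74% of all genes rose and 3.84% fell. In alternative splicing via the spliceosome 7 of 18 rose, Kdm1a, Ddx17, Hnrnpa1, Srsf6, Celf4, Cdk13 and Sfpq, and in splice site selection 7 of 18, with none lower in either. Celf5, an RNA-binding splicing factor, went from 17.2, 21.1 and 17.2 CPM to 31.1, 41.2 and 31.2 CPM, with library B the highest in both groups, and Ddx17, an RNA helicase, from 177, 172 and 164 CPM to 243, 246 and 215 CPM. Kdm1a, which demethylates histone lysines and is listed in this term, rose from 159 ± 7.74 to 215 ± 11.6 CPM. In miRNA binding 10 of 28 rose and 1 fell. Pnpt1, a mitochondrial RNA exonuclease, rose 1.98-fold, from 11.2, 9.66 and 11.3 CPM to 19.1, 22.0 and 23.2 CPM. The Argonaute genes Ago1, Ago3 and Ago4 rose by 1.06, 0.38 and 0.39, the uridylyltransferases Tut4 and Tut7 were also in this group, and Ago1 went from 3.38, 2.70 and 2.79 CPM to 7.01, 6.03 and 5.62 CPM.

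Chromatin and centrosome terms came next, again beside 5.74% of all genes higher. In the NuRD complex 5 of 16 rose, among them Hdac2, Mta2, from 62.9, 59.2 and 65.8 CPM to 80.6, 80.5 and 83.8 CPM, and Gatad2a, by 0.38. In centrosome duplication 5 of 15 rose, led by Arhgef10, a guanine nucleotide exchange factor that lay at 32.0, 32.0 and 29.7 CPM in untreated and at 58.7, 58.6 and 58.5 CPM in oxamate libraries (log2 change 0.91, adjusted p = 0.00043), with Rock2 at 0.94 and Cenpj at 0.54. In regulation of cell morphogenesis 7 of 23 rose, 5 of them zinc finger genes of the Zmym family, and Zmym4 went from 101, 114 and 112 CPM to 160, 181 and 184 CPM. In positive regulation of histone acetylation 5 of 18 rose, with Tada2b at 0.57 and Paxip1 at 0.47, and Rps6ka4 fell by 0.54. The terms for synaptic plasticity (6 of 18, with Egr1, Rab5a and Nf1), ectodomain proteolysis (5 of 16, with Dag1 and Adam10) and cochlea development (6 of 20, with Cecr2 and Gata3) had members of many functions.

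No term reached such shares among the falls, where 3.84% of all genes fell. The highest was regulation of dendrite development, where 4 of 17 fell and 2 rose, with Rapgef4 and Kalrn, both exchange factors, at -1.19 and -1.34. Proton-exporting ATPase activity had 3 of 15 lower, Atp6v1e1, Atp6v0d1 and the calcium pump Atp2a1. Transfer of acyl groups had 3 of 15 lower, Hadhb, the fatty acid elongase Elovl2, at 446 ± 17.7 against 365 ± 22.0 CPM, and Oxsm, of mitochondrial fatty acid synthesis, by 0.45. Pericentric heterochromatin had 3 of 15 lower, the demethylase gene Kdm4d, from 282 ± 14.2 to 232 ± 9.14 CPM, Lrwd1, from 369 ± 5.75 to 293 ± 38.8 CPM, and H2al2a. Baz1b in the same term rose by 0.79, 11 of its 15 log2 changes were positive, and its median was 0.17. With the replicate block 6 of this term were higher and 3 lower. The response to cadmium ion had 4 of 21 lower and 1 higher, and the metallothionein Mt2 in it fell from 91.9, 94.9 and 98.7 CPM to 72.9, 68.8 and 72.5 CPM. Negative regulation of senescence was split, with 3 of 16 higher, Trp63 among them, and 3 lower, led by Bcl2l12, from 50.2 ± 2.74 to 33.4 ± 0.851 CPM.

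Among terms with more than 300 tested genes several of the nucleus were on the higher side. Over all genes 5.74% rose and 3.84% fell, and over protein-coding genes 6.98% and 3.78%. Among protein-coding transcripts of 4 to 8 kb the share that rose was 10.4%, and the part of transcript length in these terms was not tested. Chromatin binding had 51 of 360 (14.2%) higher and 10 lower with a median of 0.13, nuclear speck 49 of 346 (14.2%) and 8 with a median of 0.11, and negative regulation of transcription by RNA polymerase II 78 of 574 (13.6%) and 15. Calcium ion binding had 34 of 411 (8.27%) lower and 20 higher, and the extracellular region 38 of 676 (5.62%) lower and 20 higher. The mitochondrial inner membrane had 11 of 316 lower and 8 higher with a median of -0.10. Spermatogenesis, with 28 of 384 (7.29%) higher and 12 lower and a median of -0.01, lay near the shares over all genes.

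The kind and size of the transcript moved with the direction of change. Of 13526 protein-coding genes 944 (6.98%) rose and 511 (3.78%) fell, and of 3175 long noncoding RNA (lncRNA) genes 53 (1.67%) rose and 141 (4.44%) fell, with medians of 0.01 and -0.11. LncRNA genes were 17.4% of those tested but 20.1% of the lower and 5.06% of the higher genes. At 30 CPM or more 29 of 145 lncRNA genes (20%) fell and 2 (1.38%) rose, beside 5.52% and 8.06% of protein-coding genes at that level. Cep83os went from 131, 132 and 137 CPM to 88.2, 86.2 and 72.8 CPM, Cdk19os from 47.2, 51.9 and 51.6 CPM to 30.8, 23.6 and 23.1 CPM, and Prox2os from 3.29, 3.30 and 3.42 CPM to 1.59, 1.67 and 1.51 CPM. All 3 are named as opposite-strand genes, and since the sources used here do not say how strand entered the counting, reads from the other strand may be among theirs.

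Among protein-coding genes the share that rose was 0.423% for transcripts under 1 kb, 3.19% from 1 to 2 kb, 5.54% from 2 to 4 kb, 10.4% from 4 to 8 kb and 14.5% from 8 kb, while the share that fell stayed between 3.32 and 5%. The median log2 change went from -0.17 to 0.09 over the same bins. By GC content 10.5% rose and 1.41% fell under 40% GC, against 4.29% and 4.82% at 55% or more. With both trends removed and the block kept, 1787 genes rose and 1913 fell, so the excess of rises over falls was not seen in that fit. With upper quartile scaling 889 rose and 833 fell. LncRNA genes had 137 higher and 301 lower with the block alone and 155 higher and 231 lower with the trends also removed, at a median of -0.04.

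**Figure D5:**
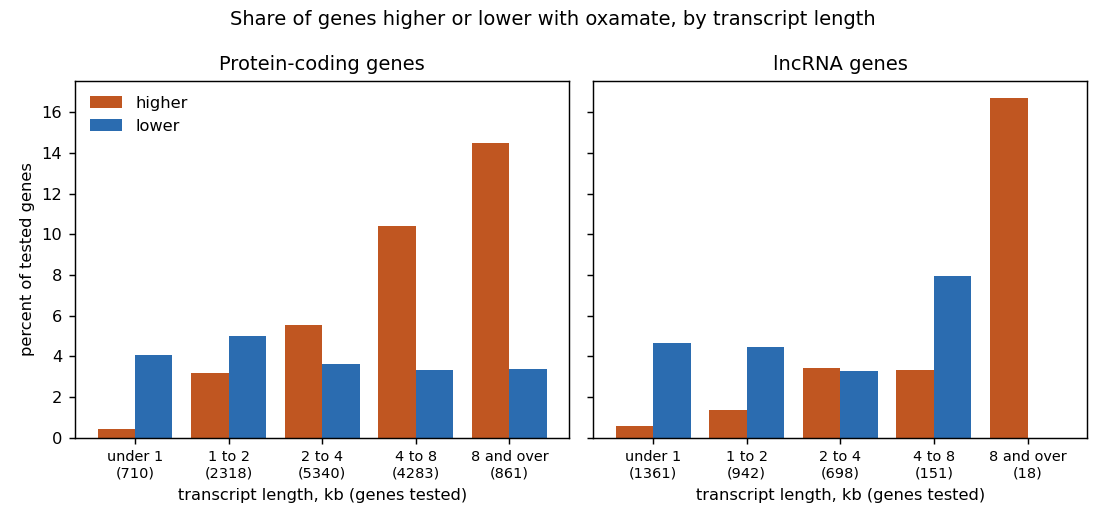
Percent of tested genes higher (orange) or lower (blue) with oxamate by transcript length in kb, for protein-coding genes (left) and lncRNA genes (right), with the number tested in brackets. The share of protein-coding genes that rose goes from 0.423% under 1 kb to 14.5% from 8 kb, and the last lncRNA bar rests on 18 genes.

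By median log2 change the sex chromosomes and the mitochondrial genome lay above the autosomes. On the X 51 of 409 tested genes (12.5%) rose and none fell, with a median of 0.25, while 995 of 17760 autosomal genes (5.60%) rose and 700 fell with a median of -0.01. Summed over all 409 genes the X gave 1853, 1722 and 1776 CPM in untreated and 1979, 1976 and 2163 CPM in oxamate libraries, which did not overlap. The X-linked rises included the RNA-binding genes Fmr1, Rbmx, from 0.915, 1.04 and 0.870 CPM to 2.05, 2.55 and 2.11 CPM, and Hnrnph2. With the replicate block 85 X-linked genes rose and 2 fell at a median of 0.24, with length and GC trends removed as well 80 rose and 1 fell at a median of 0.21, and without oxamate library B or C 20 or 14 rose and none fell. The 49 Y-linked genes summed to 101 to 103 CPM in untreated and 123 to 138 CPM in oxamate libraries, with 1 called. The 11 mitochondrially encoded genes summed to 4319, 4684 and 4734 CPM and to 4694, 6289 and 7635 CPM, so oxamate library A lay within the untreated range, and mt-Co1 at 1611, 1700 and 1693 against 1837, 2174 and 2272 CPM did not pass (adjusted p = 0.066).

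Promoters of genes that rose were richer in CpG. RefSeq windows were found for 12536 of the 18234 genes. Among protein-coding genes 81.9% of windows of higher genes, 67.4% of those of lower genes and 72.4% of those of all tested genes held at least 10 CpG. The GC box GGGCGG was in 66.6, 51.7 and 56.5% of these windows, the TATA box TATAAA in 6.09, 8.91 and 7.92%, the amino acid response element TGATGNAA in 2, 4.07 and 2.54% and the FOXO site GTAAACA in 3.30, 0.969 and 2.60%, in the order higher, lower and all. CCAAT was in 38.5, 40.1 and 37.8% of windows, and CACGTG in 9.89, 9.88 and 9.41%. Matches were counted on both strands, a match is not a bound site, and no test was made.

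The authors' deposited table gave 26033 genes an adjusted p for this comparison and called 2339, 1377 higher and 962 lower, at the same threshold. Of the 1747 genes called here 1556 (89.1%) were called in the authors' deposited table in the same direction and none in the opposite direction. Those 1556 were 66.5% of the genes called in the authors' deposited table, and 779 others of its calls were tested here without being called.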

How the data were processed

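Per the labels' protocols, poly-A RNA was made into libraries with a stranded kit. Per the submitters' processing notes, the authors' tools included TopHat2 2.1.1 on GRCm38, HTSeq 0.6.0 and, for their own comparisons, DESeq2 1.22.2; settings are not given in the sources used here. The raw columns deposited by the authors hold whole-number counts per gene; 6255 of 55471 genes hold question marks there and were left out, and because of them the columns are recorded as another unit, so limma-voom was used in place of a negative binomial test. The authors' deposited log2 fold changes and p-values, recorded as log2 and adjusted p-value, served only as a comparison, and their 9 normalized columns were not used.

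Genes were kept when 3 libraries reached the CPM that 10 counts give at the median depth and at least 15 counts were seen in all. Counts were scaled by trimmed mean of M values, written out in R 4.3.3, and fitted with limma 3.58.1 (voom, offset 0.5, robust empirical Bayes) to all 9 libraries by group; adjustment was by Benjamini-Hochberg over all genes. The procedure was tested on simulated data. The deviations of same-letter untreated and oxamate libraries from their group means correlated at 0.397, 0.399 and 0.293, so the letters, which no label explains, were taken to pair them. CPM errors are SD over 3 libraries; library totals make counting error small for all but low genes.

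The comparison, the 40 gene lists and the rules were chosen with earlier results of these data known. Named genes are the 12 largest rises and falls at 10 CPM or more without overlap, the 8 largest differences in CPM each way, both among changed genes, and, from each list, term or class, 3 members by lowest p; further changed members are named where a list is described, and a few genes that the rules name are not reported here. Gene models without a name, such as Gm numbers and Rik clones, were left out of the ranks and of the 3 members by lowest p. Alternatives were other scalings, filters and fits, a replicate block, and leaving out each library.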

Additional observations from a re-analysis of the deposited data

How the results depend on the processing

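With the letter as a replicate block 4032 genes changed, 2210 higher and 1822 lower, and with length and GC trends removed as well 3700, 1787 and 1913. With the 6 libraries only and the replicate block, a fit added after seeing the data, 6728 changed, 3467 higher and 3261 lower. Leaving out 1 library at a time gave 338 to 2088 changed genes, 223 to 1181 higher and 115 to 907 lower; the largest counts were those without oxamate library A. With no filter on low counts 378 genes fell. Upper quartile and median-of-ratios scaling, a filter at 1 CPM, limma-trend and the 6 libraries without a block left each count within 1.5 times its value, with 51.6% of changed genes higher by upper quartile scaling, 70% with no filter and 59.9% as reported. Of the 171 named genes that changed, none reversed under any alternative; 171 were called with the replicate block, 162 with trends removed as well, 163 with upper quartile scaling, 136 with no filter and 58 to 151 without a single library. The cause of these differences was not tested. Of genes under 1 CPM 3.25% passed.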

Other observations

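Genes that rose lay side by side in 3 stretches of the genome, found by counting calls over 12 neighbouring tested genes after the values had been seen, so no test is given. Of 17987 such windows, those with at least 8 changed genes in the same direction fell into these stretches, all of rises. On chromosome 7, from 38311078 to 39413160, 13 of 19 tested genes rose and 1 fell, most of them annotated as unprocessed pseudogenes. Gm6124 there stood at 2.90, 3.30 and 2.70 CPM in untreated and 8.62, 11.3 and 8.77 CPM in oxamate libraries (log2 change 1.68, limma adjusted p = 0.0010), and the protein-coding Gm5591 at 10.2, 12.7 and 11.8 CPM and 21.6, 28.4 and 21.8 CPM. The 13 genes that rose summed to 50.5, 60.1 and 55.8 CPM and to 103, 130 and 100.4 CPM.

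On chromosome 5, from 25965961 to 28078662, 10 of 15 tested genes rose and none fell. Speer4a and Speer4b, of a glutamate-rich gene family named for spermatogenesis, went from 3.36, 3.74 and 3.898 CPM to 6.09, 9.04 and 7.67 CPM and from 9.79, 11.0 and 11.4 CPM to 16.6, 20.8 and 17.6 CPM. The stretch also held Paxip1 and Insig1, which are no members of that family. Speer genes, and the predicted genes of the stretch on chromosome 7 where they are copies of each other, can share reads, so the values of single genes there are uncertain.

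On chromosome 4, from 126331704 to 127124372, 8 of 12 rose and none fell: Ago1, Ago3, Ago4, Ncdn, Zmym4, Zmym6, Sfpq and Gm12940. The neighbours Psmb2, a proteasome subunit, and Zmym1 had log2 changes of -0.07 and 0.15 and did not pass. The Gene Ontology counts for miRNA binding and cell morphogenesis given above therefore include genes of a single stretch, Ago1, Ago3 and Ago4 in the former and Ago4, Zmym4 and Zmym6 in the latter.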
